A study of Mus musculus with 2 samples.

Results

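Antiviral effectors induced by type I interferon were examined in tumour-infiltrating monocytic myeloid-derived suppressor cells (M-MDSCs) from mice on a normal-salt diet (NSD) or a high-salt diet (HSD). The group holds 10 listed genes, Mx1, Mx2, Rsad2, Cmpk2, Rtp4, Ifi44, Bst2, Xaf1, Ifi35 and Samd9l, of which 8 were among the 20653 genes that could be named on the array. They carried 11 probes. No named probe was found for Mx1 or Mx2. The genes were chosen with their own HSD and NSD signals in view, so every difference between the diets given for them here is a description and nothing is tested or supported by it.

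Type I interferons, the interferon-α genes and interferon-β, bind a receptor made of Ifnar1 and Ifnar2, and the kinases Jak1 and Tyk2 then pass the signal to ISGF3, a factor that includes Stat2 and Irf9. ISGF3 binds interferon-stimulated response elements in promoters and switches on a large set of genes, among them the effectors described here. Macrophages and monocytes respond strongly to these cytokines, and the effectors act at different steps of viral entry, replication and release.

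Female BABL/c mice carried 4T1 tumours, 4T1 being a mouse mammary carcinoma line, after subcutaneous injection of 1000000 cells into the armpit, and were kept for 16 days on either diet. NSD mice ate chow with 0.4% NaCl and drank tap water, whereas HSD mice ate chow with 4% NaCl and drank water with 1% NaCl. M-MDSCs, immature myeloid cells that restrain T cells, were taken from the tumours with a magnetic bead kit, equal numbers of cells were mixed within a diet, and total RNA was labelled with Cy3 and hybridised to a 1-colour Agilent array. Each diet thus has 1 array, with no spread between mice, no test of the diet and no p-value. The labels give no age, and the study's methods describe young adult mice.

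Both arrays lay on the same slide and each had 44397 spots, none saturated. Of 39413 probes with a value on both arrays, 71.9% exceeded background well on the NSD array against 72.4% on the HSD array. Of 10 monocyte and M-MDSC markers 9 had a probe, and all 9 were well above background on both arrays, among them Itgam (CD11b) and Ly6c1. Markers of other cells were well above background too, including all 9 neutrophil markers that had a probe, such as the bright S100a8. The neutrophil markers Camp and Ltf gave 61817 and 51766 on the NSD array, beside 31564 for Itgam and 51811 for Ly6c1. The share of neutrophils among the cells was not tested. All 5 B cell markers were also well above background, of which Cd79a and Pax5 were dim.

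The promoters of the effectors were compared for the letters that ISGF3 is known to bind. Windows of 300 bases, from 250 before to 50 after the annotated start, came from RefSeq for assembly GRCm38.p6 and were found for 7 of the 10 genes, all except Mx1, Mx2 and Rtp4. Each was searched on both strands for 2 copies of GAAA in the same orientation, as GAAANNGAAA, and also as GAAANGAAA and GAAANNNGAAA, spacings that were added after the windows had been read. With GAAANNGAAA alone, 2 of the 7 windows held a match, those of Rsad2 and Bst2 (28.6%), against 21 of 43 windows of other interferon-induced genes (48.8%) and 3.99% of all 27025 genes with a window. With the added spacings, all called ISRE-like here, 6 of the 7 windows held a match, against 26 of 43 (60.5%) and 9.91%. Since those spacings were chosen on these windows, nothing is read from the larger count. The stretches of 30 bases that hold the matches are shown 5′ to 3′ on the strand of the gene, with the ISRE-like letters in capitals.

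Rsad2: caacTTTCATTTTCaGAAAACAGAAActct
Ifi44: tacagagTTTCAGTTTTCGTTTCccgagca
Bst2: attccagGAAAATGAAACTGAAAggctgca
Xaf1: ctgtgtgcaaaGAAACGAAActccacagaa
Ifi35: cagaattcacaGAAATGAAAgtggaagtga
Samd9l: gtatcagaatcGAAACTGGAAActgaagca

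The Rsad2 stretch lies at chr12:26456547-26456576 on the minus strand, with matches that begin 120 and 109 bases before the start. Ifi44 had its stretch at chr3:151749943-151749972, minus strand, with overlapping matches that begin 55 and 48 bases before the start. In Bst2, at chr8:71537580-71537609 on the minus strand, the matches begin 130 and 124 bases before the start and share their middle GAAA. The remaining genes had 1 match each and held it just downstream of the start. It began 10 bases after the start in Xaf1 (chr11:72301628-72301657, plus strand), 13 bases after it in Ifi35 (chr11:101448414-101448443, plus strand) and 31 bases after it in Samd9l (chr6:3399522-3399551, minus strand). The Cmpk2 window held no match, which says only that these letters are not in this window. Cmpk2 is the direct neighbour of Rsad2 on chromosome 12, on the opposite strand.

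The palindrome TTCNNNGAA, the letters of the gamma-activated site known from interferon-γ signalling, was counted once at each place. It was found in the windows of 2 of the 7 genes, Bst2 and Ifi35, against 9.55% of all genes with a window. In both it overlapped an ISRE-like match. These matches describe letters and do not show that a factor was bound.

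Of the 8 effectors with a named probe, 7 had a signal at least 1.5-fold lower on the HSD array than on the NSD array, and none was at least 1.5-fold higher. All 7 were at least 2-fold lower, and 5 of them, Ifi44, Xaf1, Cmpk2, Rsad2 and Bst2, were at least 4-fold lower. Samd9l was the exception. The median log2 fold change (HSD minus NSD, after each array was scaled to its 75th percentile) was -2.46. The median of the measurement errors of the 8 genes was 0.20. Across the 16312 genes with a usable value, 10.3% were at least 1.5-fold lower on the HSD array, 9.86% were at least 1.5-fold higher, 0.932% were lower by 4-fold or more, and the median over all was 0.045. Since the genes were picked on this contrast, nothing is read from the distance between these shares. With cyclic loess in place of percentile scaling, the higher genes made up 38.5% of all those past 1.5-fold, against 48.9%.

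The signals below are Feature Extraction's processed intensities, and the value after ± is that program's own error estimate for the spot. Each log2 fold change carries the error propagated from the spots on both arrays, near 0.20 for most probes. For probes printed in several spots, the spot errors were combined as if independent. This gives smaller errors, such as 0.07 for Myd88 and 0.06 for Igtp. The error, large or small, covers measurement within an array and leaves out mice, sorting and labelling. As a second yardstick, probes printed in at least 5 spots had a median SD between spots of 0.084 on the log2 scale, falling from 0.21 in the dimmest of 5 groups by signal to 0.060 in the brightest. RNA came from mixed cells, so fewer cells of a type and less RNA per cell cannot be told apart.

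**Figure D1:**
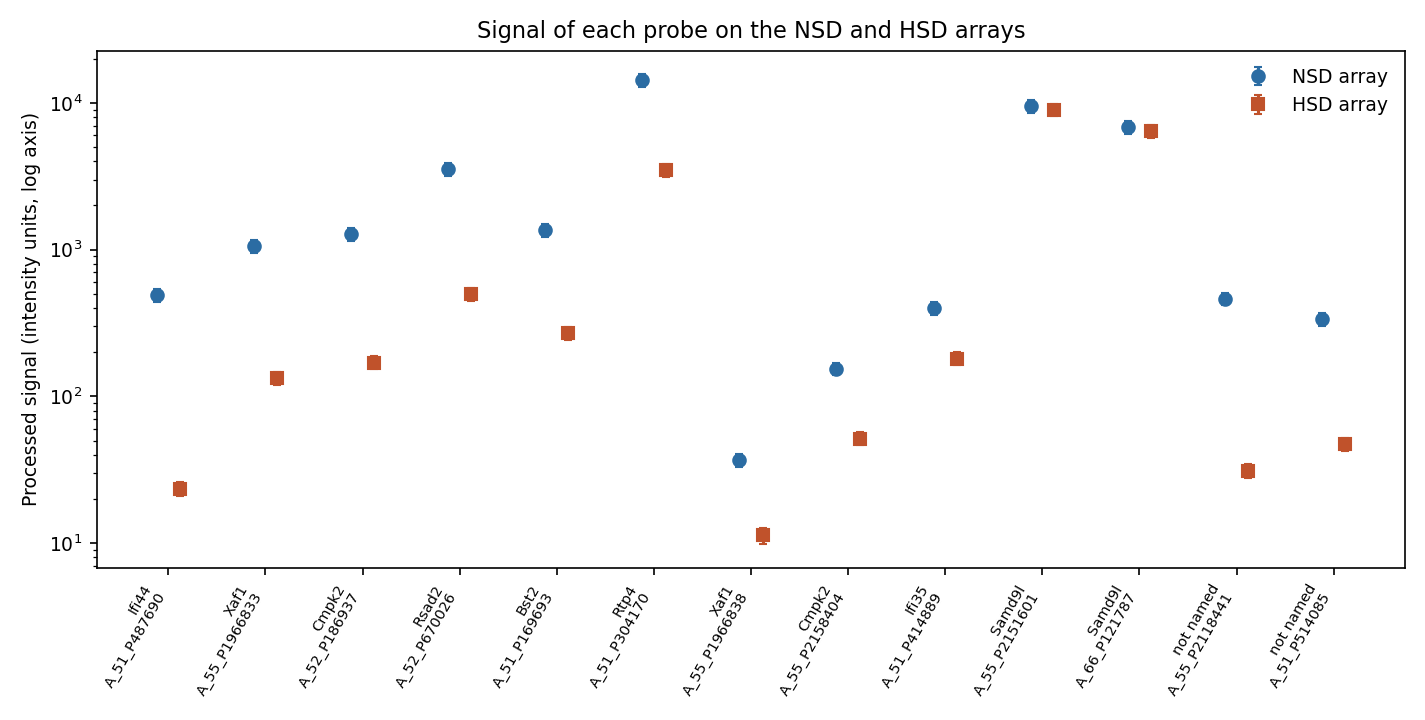
Processed signal (intensity units, log axis) of each probe on the NSD array (circles) and the HSD array (squares), with Feature Extraction's error as bars. The circles lie clearly above the squares for 9 of the 11 named probes, and the symbols nearly coincide for both Samd9l probes, at 9556 and 9000.5 for one and 6807 and 6430.4 for the other.

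The effectors that act on viral nucleotide supply and replication come first. Rsad2 encodes viperin, an enzyme that makes a chain-terminating nucleotide from CTP. Its probe gave 3524 ± 352 on the NSD array against 497 ± 49.8 on the HSD array, a signal 6.54-fold lower (log2 fold change -2.71 ± 0.20). Cmpk2, the mitochondrial nucleotide kinase next to Rsad2, is known to supply viperin's substrate. Probe A_52_P186937 for Cmpk2 read 1277 ± 128 on the NSD array against 170.1 ± 17.0 on the HSD array, 6.94-fold lower (log2 fold change -2.79 ± 0.20). The other Cmpk2 probe, A_55_P2158404, read 154.6 ± 15.5 and 51.5 ± 5.25 on these arrays, 2.77-fold lower (-1.47 ± 0.21). Rsad2 and the brighter Cmpk2 probe differed by 0.084 on the log2 scale, less than the error of that difference (0.29). The Cmpk2 probes stood 1.32 apart, a gap of at least 1 that occurred in 194 (5.27%) of 3683 genes with several measured probes, whose median gap was 0.258.

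Bst2 encodes tetherin, a membrane protein that holds budding virions on the cell surface. Bst2 gave 1363 ± 136 on the NSD array against 270.5 ± 27.1 on the HSD array, 4.65-fold lower (log2 fold change -2.22 ± 0.20). Rtp4, a transmembrane protein that binds RNA and restrains flaviviruses, gave 14255 ± 1426 and 3468 ± 347, 3.80-fold lower (-1.93 ± 0.20). The Rtp4 signal was thus bright on both arrays, far from background, and 118 of the 15209 genes measured on both arrays had a lower log2 fold change. The Bst2 and Rtp4 values lay 0.29 apart, about the error of that difference (0.29).

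Ifi44 encodes a cytoplasmic protein with a GTP-binding fold that is induced by interferon. The Ifi44 signal was 487 ± 48.7 on the NSD array against 23.5 ± 2.51 on the HSD array, 19.2-fold lower (log2 fold change -4.26 ± 0.21). Only 2 of the 15209 genes measured on both arrays had a lower value. The HSD signal of Ifi44 was well above background but close to it, and with normexp background correction, which draws dim signals together, its log2 fold change was -2.67. Ifi44l, the neighbour and closest relative of Ifi44, gave 194.7 and 77.3, a log2 fold change of -1.22 ± 0.21.

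Xaf1, which binds the apoptosis inhibitor Xiap and favours cell death, had probes of unequal brightness. Probe A_55_P1966833 read 1052 ± 105 on the NSD array against 133.5 ± 13.4 on the HSD array, 7.28-fold lower (log2 fold change -2.86 ± 0.20). The dim probe, A_55_P1966838, read 36.9 ± 3.81 and 11.3 ± 1.45, 3.02-fold lower (-1.60 ± 0.24). The probes of Xaf1 thus stood 1.27 apart, and both were lower on the HSD array. Under normexp the dim probe was at -0.40, no longer 1.5-fold, and the dimmer Cmpk2 probe was at -0.85. With the median over probes in place of the brightest one, Xaf1 was at -2.23 and Cmpk2 at -2.13. Xiap itself gave 3243 on the NSD array against 3533 on the HSD array, a log2 fold change of 0.24 ± 0.20.

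Ifi35 pairs with Nmi in a complex that tunes interferon signalling. Its probe gave 397 ± 39.8 on the NSD array against 181.1 ± 18.1 on the HSD array, 2.03-fold lower (log2 fold change -1.02 ± 0.20), the smallest difference among the 7 lower genes. Nmi gave 2078 and 1085, a log2 fold change of -0.82 ± 0.20.

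Samd9l encodes a cytoplasmic antiviral protein that restrains poxviruses and slows cell growth. Probe A_55_P2151601 read 9556 ± 956 on the NSD array against 9000.5 ± 900.05 on the HSD array, a log2 fold change of 0.028 ± 0.20. A second probe, A_66_P121787, read 6807 ± 681 and 6430.4 ± 643, a log2 fold change of 0.032 ± 0.20. The probes lay 0.0044 apart, and 48.4% of the genes measured on both arrays had a lower value than the first. The sign for Samd9l depended on the scaling, with -0.089 under cyclic loess and 0.11 under normexp, all within the measurement error. Its promoter window matched only GAAANNNGAAA, a spacing added after the windows had been read, so nothing is read from that match.

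Ordered by log2 fold change, the effectors ran Ifi44, Xaf1, Cmpk2, Rsad2, Bst2, Rtp4, Ifi35 and Samd9l. Ifi44 lay 1.40 below Xaf1, Rtp4 lay 0.91 below Ifi35, and Ifi35 lay 1.05 below Samd9l, each more than 3 times the error of that difference (0.29). That error leaves out differences between probes, and those of Cmpk2 stood 1.32 apart and those of Xaf1 1.27. Ifi44, Rtp4 and Ifi35 had a single probe, so such a difference could not be seen for them. Xaf1 and Cmpk2 lay 0.069 apart, and Rsad2 and Bst2 0.49 apart, so that neighbours from Xaf1 to Rtp4 were separated by less than 2 errors. The order depended on the setting. Under normexp Ifi44 was at -2.67, close to Rsad2 at -2.57 and Xaf1 at -2.43, so its separation was lost. With the median over probes, Xaf1 (-2.23) and Cmpk2 (-2.13) came after Rsad2 (-2.71). The gene just inside the 1.5-fold limit was Ifi35 and the gene just outside it was Samd9l.

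**Figure D2:**
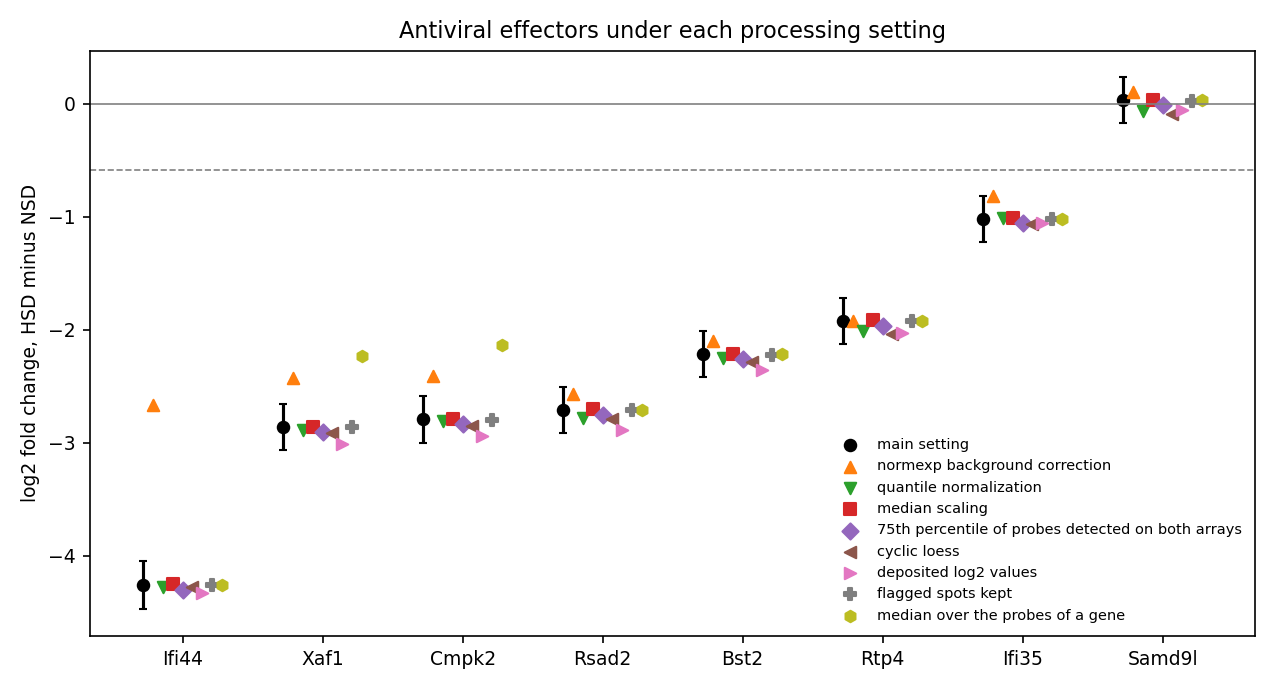
Log2 fold change (HSD minus NSD) of each effector under the main setting (black, with the measurement error as a bar) and 8 others; the dashed line marks 1.5-fold lower. All settings keep 7 genes below the dashed line and Samd9l near 0, and Ifi44 has the widest range, from -4.33 to -2.67.

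For Mx1 and Mx2, whose family of dynamin-like GTPases is known to trap viral nucleocapsids, the RefSeq table used here lists only transcribed pseudogenes. No probe could be matched to them. Probes A_55_P2118441 and A_51_P514085 carry transcript identifiers that are absent from the table and were looked up as candidates for these genes, a pairing that could not be checked here. They are therefore given by probe and counted apart. Probe A_55_P2118441 read 464 ± 46.4 on the NSD array against 31.0 ± 3.34 on the HSD array, 13.8-fold lower (log2 fold change -3.79 ± 0.21). Probe A_51_P514085 read 334 ± 33.4 and 47.4 ± 4.83, 6.52-fold lower (-2.70 ± 0.21). Both were lower on the HSD array under every setting, with -2.40 and -1.84 under normexp.

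Other genes of the pathway were taken from fixed lists, written with earlier results of these data known. Among ligands, 13 of 20 genes had a usable value, and none that was measured on both arrays was 1.5-fold higher or lower (median 0.099, with Ifnb1 at its bound). The interferon-α genes are near-identical copies, so signal among them cannot be assigned with certainty. The largest differences there were Ifna2, with 13.6 on the NSD array against 18.5 on the HSD array (0.56 ± 0.25), and Ifna14, with 58.5 and 73.4 (0.44 ± 0.21). Ifna12 was at 0.27 and Ifna5 at -0.22. Ifnb1, the interferon-β gene, gave 6.78 on the NSD array and was not well above background on the HSD array, at least 1.42-fold lower, a bound that does not place it within 1.5-fold.

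The receptor and ISGF3 list, as used here, had 6 genes, of which 2 were at least 1.5-fold lower and none higher (median -0.37). The lower ones encode parts of ISGF3. Irf9 gave 5517 on the NSD array against 2616 on the HSD array (-0.96 ± 0.20), and Stat2 gave 4127 and 2081 (-0.87 ± 0.20). The receptor chains did not pass 1.5-fold. Ifnar1 gave 734 and 492 (-0.46 ± 0.20) and Ifnar2 gave 4263 and 3867 (-0.03 ± 0.20). The kinase gene Jak1 gave 5468 and 6408 (0.34 ± 0.20).

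In the list of sensing and induction, 13 of 14 genes were usable, with 1 lower and 2 higher. Irf7, the factor that amplifies interferon-α transcription, was the lower one, with 373 on the NSD array against 57.0 on the HSD array (-2.60 ± 0.21). Myd88, the adaptor of most Toll-like receptors, gave 2557 and 4937 (1.06 ± 0.07), and the kinase gene Ikbke gave 263 and 462 (0.93 ± 0.20). Irf5 was at -0.48 ± 0.20.

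Among other interferon-induced genes, 42 of 50 with a usable value were at least 1.5-fold lower (84%) and 1 was higher (median -1.44). This list contains genes that were known to be lower when it was written, so its count is not independent of the effectors. The largest differences were in Ifit3, which gave 5648 on the NSD array against 337 on the HSD array (-3.95 ± 0.20), and Ifit3b, with 4352 and 280.1 (-3.84 ± 0.20). Ifit proteins bind foreign RNA and block its translation. Oasl2, a relative of the oligoadenylate synthetases, gave 6859.8 on the NSD array against 609 on the HSD array (-3.38 ± 0.20), and Ifit1 gave 4564 and 462 (-3.19 ± 0.20). Ifit1bl1 was the 1 higher gene, with 560.02 and 959 (0.89 ± 0.20).

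Restriction factors outside the listed effectors were mostly within 1.5-fold, with 3 of 16 lower and 1 higher (median 0.070). The lower ones were Zc3hav1, which encodes the zinc-finger antiviral protein ZAP (203.9 on the NSD array against 20.1 on the HSD array, -3.23 ± 0.22), Trim21, a cytosolic antibody receptor (343 and 77.7, -2.03 ± 0.21), and Ifitm3, which blocks viral fusion (13437 and 8072, -0.62 ± 0.06). Ch25h, the oxysterol-producing enzyme, was the higher one, with 16.1 and 24.1 (0.69 ± 0.23).

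Negative regulators of the pathway numbered 10, with 1 lower and 2 higher (median 0.24). Usp18, which removes Isg15 from proteins and damps the receptor, gave 2220.1 on the NSD array against 358 on the HSD array (-2.52 ± 0.20). Socs3 gave 1515 and 4177 (1.58 ± 0.20) and Pias1 gave 1096 and 1681 (0.73 ± 0.20). Pias3, near background, was at -0.52 ± 0.40. Usp18 is itself induced by interferon and also counts in the list of other interferon-induced genes.

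Relatives and partners of the effectors, such as the dynamins and other receptor transporters, had 2 of 10 usable genes lower, Ifi44l and Nmi, and 1 higher, Rtp3, at 5.50 on the NSD array against 8.68 on the HSD array (0.77 ± 0.36). Cmpk1, the cytosolic counterpart of Cmpk2, gave 790.6 and 791.0 (0.12 ± 0.20). Dnm1l was at -0.51 ± 0.20.

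Genes that lean towards interferon-γ had 4 of 14 lower and 1 higher (median -0.092). The GTPases Igtp, with 2812 on the NSD array against 868 on the HSD array (-1.58 ± 0.06), and Irgm1, with 2297 and 727 (-1.55 ± 0.20), differed most. Cxcl9 (1.06 ± 0.34) and Ido1 (-0.97 ± 0.35) were close to background. The medians of this list, of the sensing list and of the restriction factors lay near 0 and their signs changed with the setting, between -0.13 and 0.013, between -0.032 and 0.048, and between -0.018 and 0.076.

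**Figure D3:**
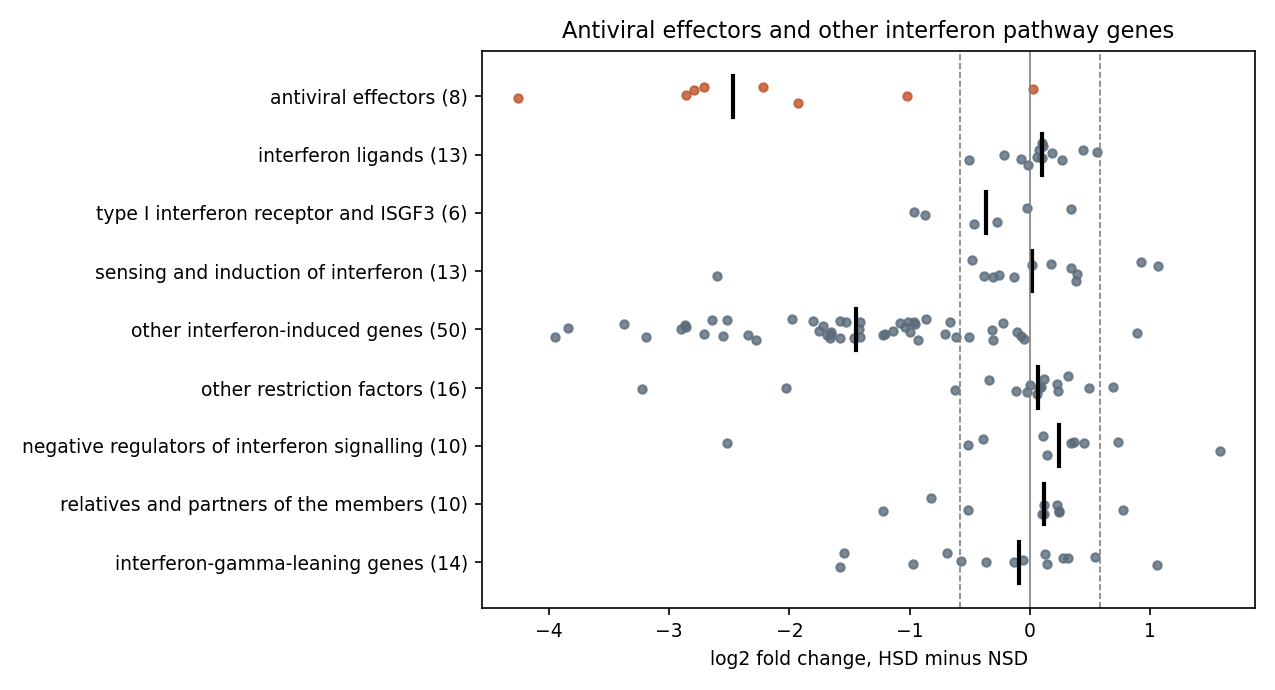
Log2 fold change (HSD minus NSD) of each usable gene, by list, with the number of genes in brackets; the bar marks the median, the dashed lines 1.5-fold in either direction, and vertical scatter within a row carries no value. The effectors (median -2.46) and other interferon-induced genes (-1.44) lie mostly left of the dashed line, and the ligands (0.099) lie between the dashed lines, with Ifnb1 drawn at its bound.

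Markers of other cells were set beside the effectors. Macrophage markers differed between the arrays too, with 5 of 7 at least 1.5-fold lower on the HSD array (median -1.36). Mrc1 gave 134.3 on the NSD array against 5.49 on the HSD array (-4.50 ± 0.32), C1qc gave 52.6 and 5.61 (-3.11 ± 0.11), and Mertk gave 95.9 and 15.4 (-2.52 ± 0.22). The HSD signals of Mrc1 and C1qc were close to background. C1qb was at 0.33 and Adgre1 at -0.55. C1qa, counted as lower, was not well above background on the HSD array, so its value of -1.36, also the median of the list, is a bound. The summed scaled signal of the macrophage markers on the HSD array was 0.662 times that on the NSD array. Adgre1 and Apoe (-0.60 ± 0.07), by far the brightest, make up most of this sum. Platelet markers had 3 of 4 lower (median -1.56), among them Pf4 (1332 and 245.1, -2.33 ± 0.20), with a summed signal 0.207 times that of the NSD array. Pf4, by far the brightest of the platelet markers, makes up most of their sum, and Itga2b (13.9 and 6.94) was dim. The part of these cells in the effector values was not tested.

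Plasmacytoid dendritic cells are known as strong producers of type I interferon. All 7 of their markers were well above background on both arrays, with 2 lower, none higher, a median of -0.025 and a summed signal on the HSD array 1.06 times that on the NSD array. Siglech, by far the brightest of them, gave 13705 and 13214 (0.06 ± 0.20) and makes up most of that sum. The lower ones were Klk1, with 103.3 on the NSD array against 43.7 on the HSD array (-1.13 ± 0.21), and Ccr9, with 101.8 and 56.4 (-0.74 ± 0.21). For monocyte and M-MDSC markers the ratio of sums was 1.11 and the median -0.37, with 2 of 9 lower and 2 higher. The higher ones were Cd14 (0.82) and Chil3 (0.65), and the lower ones Ccr2 (-0.78) and Fcgr1. Fcgr1, a high-affinity antibody receptor that interferon also induces, was the lowest of the list, with 305 on the NSD array against 21.9 on the HSD array (-3.68 ± 0.21), whereas Ly6c1 was at 0.02 ± 0.20. Neutrophil markers had a ratio of 1.04 and 1 of 9 lower. Very bright genes make up most of that sum, such as Camp (61817 and 59919.5) and S100a8 (57914 and 56478). Whether signals this bright still follow the amount of RNA was not tested, which also holds for Ly6c1 (51811 and 48478). The ratios of T and NK, B cell, endothelial, conventional dendritic and 4T1 carcinoma markers ran from 1.1 to 1.38. For 4T1 carcinoma markers, all of them dim, 3 of 6 were higher. Among usable conventional dendritic markers 2 of 5 were higher and 1 was lower, at a bound. Of 7 usable T and NK markers 1 was lower. For fibroblast markers, 2 of 4 usable genes were lower, Col3a1 (-1.09 ± 0.36) and Dcn (-0.80 ± 0.37), both dim, and the ratio was 0.837.

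**Figure D4:**
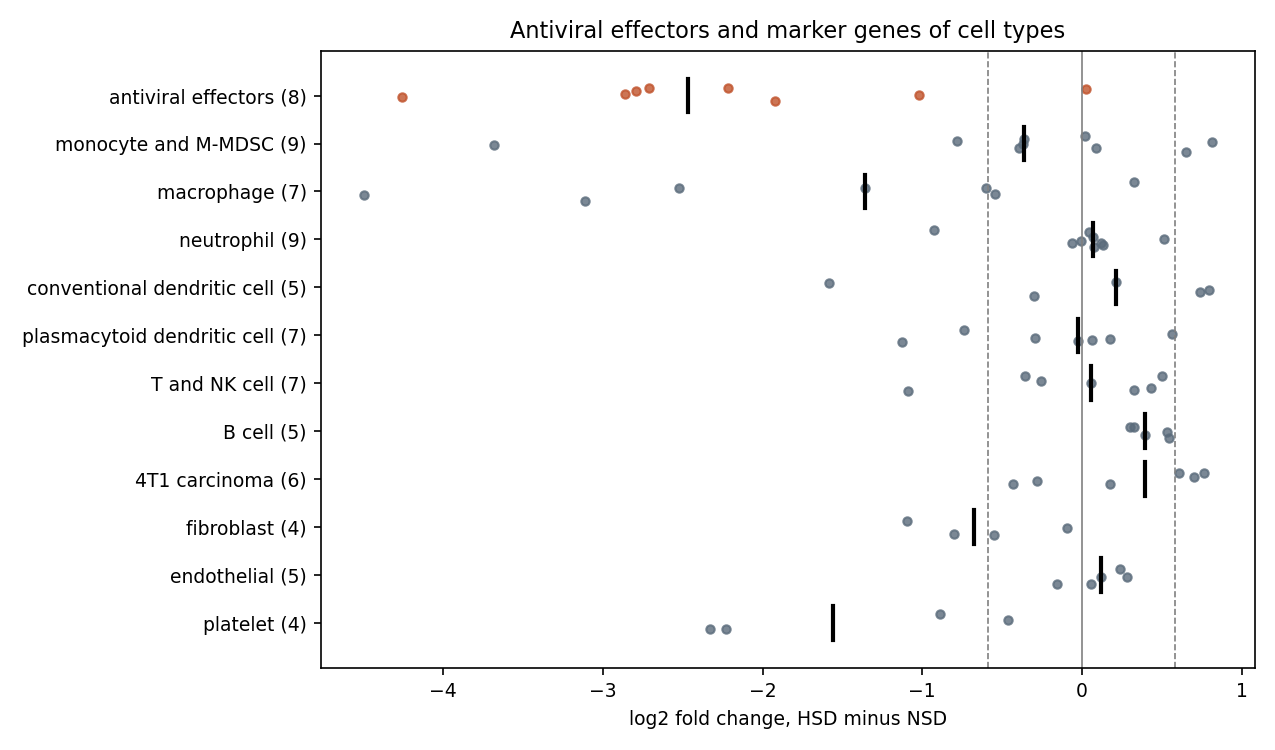
Log2 fold change (HSD minus NSD) of the effectors and of marker genes of 11 cell types, drawn as for the pathway lists, with medians as bars and 1.5-fold as dashed lines. The macrophage (median -1.36) and platelet (median -1.56) markers are the cell type lists whose medians lie beyond 1.5-fold lower, together with the fibroblast markers at -0.68.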

How the data were processed

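The authors deposited the output of each 1-colour array as extracted by Agilent Feature Extraction 11.0.1.1, whose processed signal is an intensity corrected for background and spatial trend but not normalized between arrays. A table of normalized log2 values that the authors deposited served as an alternative. It was normalized in GeneSpring GX, with the settings not given in the sources used here. Column medians were 4.61 on both arrays, which leaves the centring unknown.

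Control spots and flagged outlier spots (162 for NSD, 179 for HSD) were dropped. Processed signals were taken to log2, spots of a probe averaged and each array's 75th percentile subtracted. Transcript identifiers matched RefSeq (GRCm38.p6) for 27223 of 39413 probes (69.1%). The array was annotated on an older assembly, so its coordinates are not given. A gene took its probe with the highest mean log2 signal, and a gene not well above background on 1 array took a bound. A difference was counted from 1.5-fold. Sums of marker signals were taken as a percentage of each array's 75th percentile. Precision is limited by having 1 array per diet.

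The genes and lists were chosen with earlier results of these data known. All listed effectors are named with every probe, and of each of the 8 pathway lists the 4 largest measured differences, plus Ifnb1, Ifnar1, Ifnar2, Stat2, Irf9, Irf7, Cmpk1, Ifi44l, Xiap and Nmi. A gene of the receptor list is not reported here. Ifit1bl1 and the markers of cell types were named after their values were seen. Alternatives were normexp (offset 50), quantile, median, detected-probe and cyclic loess scaling, the deposited log2 values, flagged spots kept, the median over probes, other filters on dim probes and a 2-fold limit. Normexp was planned on the spot signal and run on its median. The counting was tested on simulated data. Software comprised limma 3.58.1 in R 4.3.3, and pandas 2.3.3, numpy 2.4.6 and matplotlib 3.10.9 in Python 3.11.15.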

Additional observations from a re-analysis of the deposited data

How the results depend on the processing

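The count of 7 effectors at least 1.5-fold lower was the same under the 11 listed alternatives, among them a 2-fold limit, and became 9 with both probes of retired identifiers, an alternative chosen after seeing the data. The median of the effectors was -2.25 with normexp, -2.18 with the median over probes and -2.71 with those probes. Normexp also moved the median of other interferon-induced genes to -1.23. None of the 7 lower effectors changed direction, and the sign of Samd9l, never past 1.5-fold, varied. Over all genes, normexp left 625 higher and 655 lower, against 1608 and 1682. The cause was not tested. With 1 array per diet no array could be left out, and no paired analysis was possible because each diet has 1 array. Dim probes limit the values of Ifnb1, Pias3, Rtp3, Cxcl9, Ido1, Mrc1, C1qa and C1qc.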
